A study of Mus musculus with 6 samples.

Results

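The genes described here carry the Gene Ontology annotation "protein N-linked glycosylation" in the deposited expression table. Of 46 table entries with that annotation, the 34 with a mean of at least 1 FPKM (fragments per kilobase of transcript, scaled to the mapped fragments of the library) over the 6 libraries were kept. The set was therefore chosen by annotation and by mean level. Just inside the minimum stood Mgat1 at a mean of 1.14 FPKM, Gfpt1 at 1.16 and Slc39a8 at 1.31, and just outside stood Mgat5 at 0.462 and Fut8 at 0.23. Mgat1 reached the minimum through its control libraries (mean 2.185 FPKM, beside 0.97 after APAP and 0.265 in COS+APAP), Gfpt1 through the APAP and COS+APAP libraries, and Pmm1 through the COS+APAP libraries, its other 4 libraries ranging from 0.69 to 1.17. The choice itself thus favoured a difference in these 3 genes. Of the 12 entries left out, Mgat4c, Mgat4d, Mgat4e, Mgat4f, Mgat5b and Pate6 were listed at 0 in every library. Mgat3, Mgat4a, Alg6, Gfpt2, Fut8 and Mgat5 were detected below the minimum, and among these Gfpt2 was listed at 0.65 and 0.45 FPKM after APAP against at most 0.11 in the other libraries.

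N-linked glycosylation attaches a preassembled oligosaccharide to asparagine residues of proteins entering the endoplasmic reticulum (ER). The sugar chain is built step by step on the lipid dolichol in the ER membrane, moved to the nascent protein by the oligosaccharyltransferase, trimmed in the ER during folding, and remodelled in the Golgi apparatus. Hepatocytes secrete most plasma proteins, many of which carry N-glycans, and inherited defects in this pathway, the congenital disorders of glycosylation, often alter liver function.

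The libraries were poly(A) RNA-seq of liver from C57BL/6 mice in 3 groups with 2 libraries each. Control mice are labelled normal, with no agent named. APAP mice received acetaminophen, a drug that injures the liver at high dose, at 400 mg/kg intraperitoneally for 6 h. COS+APAP mice received the same APAP dose and time after costunolide (COS), a plant sesquiterpene lactone, at 20 mg/kg given 12 h and 40 min before it. The sources used here do not give the age of the mice. One label runs against the others: the treatment text assigns the COS doses to samples numbered 5 and 6, which in listing order are those titled as the APAP model. Groups here follow the titles, source names and treatment fields; with the APAP and COS+APAP labels exchanged, every difference between these 2 groups would change sign. In their titles, COS+APAP libraries have numbers that begin with 2 and all others have numbers that begin with 1, so an effect of whatever that number marks cannot be told apart from that of COS. The labels do not say that libraries came from separate animals, so p-values measure the spread between these libraries, which may be technical.

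Total counts ran from 71115112 to 76669799 per library. The smallest count of any member in any library was 62, for Mgat1 in a COS+APAP library. The labelled tissue was checked by summed marker levels: 6 hepatocyte markers summed to between 44820 and 59540 FPKM in every library, while 3 adipocyte markers, relevant because the extraction text speaks of adipose tissue, summed to at most 6.86. The share of counts from the mitochondrial genome differed between groups, at 12.78% and 16.09% in the control, 8.28% and 7.37% in the APAP and 11.8% and 10.83% in the COS+APAP libraries; its part in the results below was not tested. Scaling by library totals alone in place of TMM moved the median log2 fold change of all 10051 tested genes to -0.15 in both comparisons with the control. Log2 fold changes below are relative to the TMM scale, on which that median was 0.0 for APAP against control and 0.02 for COS+APAP against control. The group means of FPKM are not TMM-scaled, so a difference read from FPKM against the control libraries comes out slightly lower.

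More glycosylation genes fell than rose after APAP, and more rose than fell in COS+APAP against APAP. In APAP against control, 7 of the 34 members were called higher (20.6%) and 11 lower (32.4%) at an adjusted p below 0.05, beside 23.3% higher and 22.1% lower among all genes tested; the members' share called higher was thus near that of all genes. The median log2 fold change of the members was -0.20, against 0.0 for all genes. In COS+APAP against APAP, 15 members were called higher (44.1%) and 3 lower (8.82%), beside 11.2% and 11.1% of all genes, and the median was 0.44 against 0.01. Between COS+APAP and control, 6 members were called higher in COS+APAP (17.6%) and 3 lower (8.82%), beside 10.7% and 10.3% of all genes, with a median of 0.15 against 0.02 that changed sign with library totals as the scaling (-0.02). The first pair of comparisons shares the APAP libraries, so a value high or low in them enters both with opposite sign. These counts and medians cover only members above the FPKM minimum and describe them without testing them as a set. They include the higher calls of Pmm1 and Gfpt1 and the lower call of Mgat1, whose differences the FPKM minimum favoured. The 7 higher calls after APAP also include Serpina1a and Serpina1b, near-identical copies that are not glycosylation enzymes. Of the 18 calls in APAP against control, 11 held when any 1 library was left out; of the 18 calls in COS+APAP against APAP, 6 did; of the 9 in COS+APAP against control, none did.

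**Figure D1:**
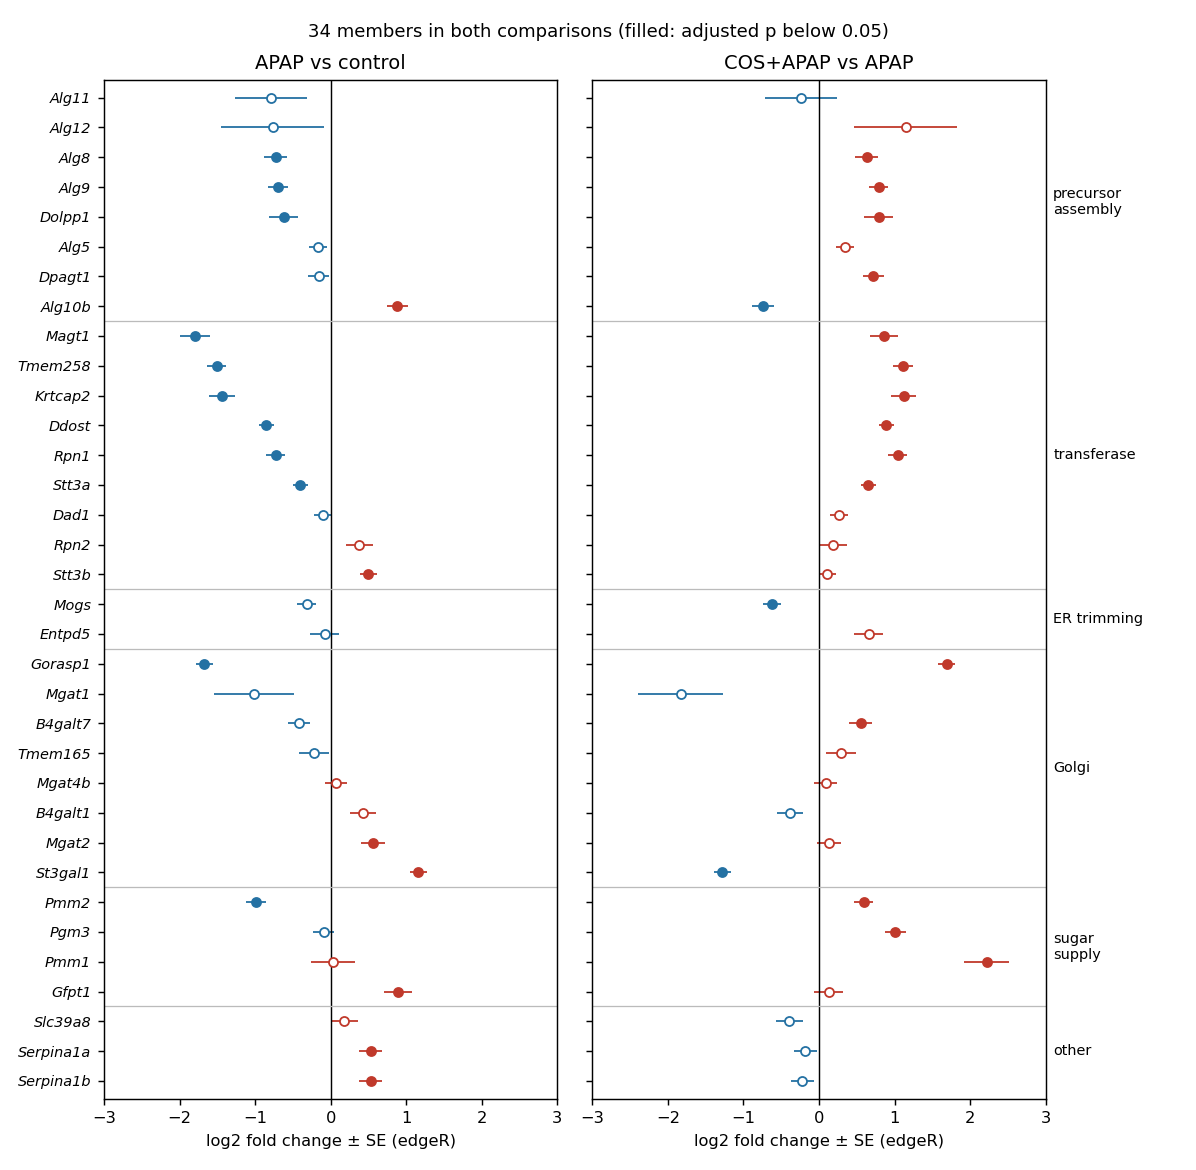
Log2 fold change of each of the 34 members (x axis, edgeR estimate, bars are ± 1 SE) in APAP against control (left) and COS+APAP against APAP (right), grouped by step of the pathway; filled points passed an adjusted p of 0.05. The left panel runs from -1.80 (Magt1) to 1.16 (St3gal1), and in the right panel 15 filled points lie to the right of 0 and 3 to the left; both panels use the same 2 APAP libraries.

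Without Serpina1a and Serpina1b, whose levels exceed all others, the FPKM of the remaining 32 members summed to 370.4 and 362.6 in the control, 248.2 and 271.5 in the APAP and 361.8 and 345.7 in the COS+APAP libraries. Both APAP libraries lay below the other 4. In bulk tissue, fewer cells of a type and less RNA per cell cannot be told apart.

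The 9 subunits of the oligosaccharyltransferase made up the largest step, with the most calls by number in APAP against control and in COS+APAP against APAP. By share, the 4 members of sugar nucleotide supply had more calls against APAP (75.0%). After APAP, 6 of the 9 fell (66.7%, beside 22.1% of all genes) and 1 rose (11.1%, beside 23.3%), with a median log2 fold change of -0.73. Against APAP, 6 rose in COS+APAP (66.7%, beside 11.2% of all genes) and none fell (beside 11.1%), with a median of 0.86. The remaining 3 had log2 fold changes between 0.11 and 0.26, and for Stt3b and Rpn2 the libraries of these groups overlapped. The complex exists in 2 forms, built around the catalytic subunits Stt3a, which acts on proteins as they enter the ER, and Stt3b, which can act later.

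Magt1 (chrX:105968084-106011906, minus strand), an oxidoreductase subunit of the Stt3b form, had 15.10 and 15.04 FPKM in the control, 4.36 and 3.52 in the APAP and 8.11 and 6.00 in the COS+APAP libraries. No 2 groups overlapped, the APAP libraries being lowest and the COS+APAP libraries in between. Its log2 fold change was -1.80 ± 0.20 (SE) in APAP against control (adjusted p = 0.00234). COS+APAP lay 0.86 ± 0.19 above APAP (adjusted p = 0.032) and, by -0.94 ± 0.19, below control (adjusted p = 0.0263). The decrease after APAP held with each library left out, with an adjusted p of at most 0.0144. The difference between COS+APAP and APAP lost its call whichever of the 4 libraries was left out (adjusted p of 0.0502 to 0.119), and that with control was lost without either control library or without COS+APAP replicate 3 (adjusted p of up to 0.109).

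Tmem258 (chr19:10204014-10207824, plus strand), a small subunit common to both forms, measured 29.01 and 32.22 FPKM in the control, 8.95 and 10.59 in the APAP and 21.65 and 20.12 in the COS+APAP libraries. The 3 groups did not overlap. It fell by 1.51 ± 0.13 on the log2 scale after APAP (adjusted p = 0.00151) and was higher by 1.11 ± 0.13 in COS+APAP than in APAP (adjusted p = 0.00783); COS+APAP against control, at -0.40 ± 0.13, missed the threshold (adjusted p = 0.0791). Krtcap2 (chr3:89245966-89249906, plus strand), a subunit of the Stt3a form, had 30.24 and 30.64 FPKM in the control, 10.21 and 10.12 in the APAP and 25.34 and 18.25 in the COS+APAP libraries. Again both APAP libraries were lowest, and the COS+APAP libraries differed more from each other than those of the other groups. The log2 fold changes were -1.44 ± 0.17 after APAP (adjusted p = 0.00296) and 1.12 ± 0.17 for COS+APAP against APAP (adjusted p = 0.0141). That second call was lost without either APAP library, with an adjusted p of up to 0.0696.

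Rpn1, or ribophorin I (chr6:88084482-88105304, plus strand), a subunit that binds certain membrane protein substrates, had 31.12 and 27.20 FPKM in the control, 15.38 and 16.58 in the APAP and 31.81 and 32.91 in the COS+APAP libraries. Both APAP libraries lay below the other 4, and the COS+APAP libraries were highest. It fell after APAP by 0.73 ± 0.12 on the log2 scale (adjusted p = 0.00599) and was higher by 1.04 ± 0.12 in COS+APAP than in APAP (adjusted p = 0.00768). Ddost, a core subunit with the highest FPKM of the 9, measured 51.46 and 48.0 in the control, 24.24 and 26.05 in the APAP and 45.71 and 46.33 in the COS+APAP libraries. The APAP libraries were again the lowest. It fell by 0.85 ± 0.10 on the log2 scale after APAP (adjusted p = 0.00296), and the difference between COS+APAP and APAP was 0.89 ± 0.10 (adjusted p = 0.00787). Both calls of Rpn1, Ddost and Tmem258 held with any 1 library left out, at adjusted p-values of up to 0.044.

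The 2 catalytic subunits moved in opposite directions after APAP. Stt3a had 7.27 and 6.85 FPKM in the control, 4.82 and 4.89 in the APAP and 7.43 and 7.55 in the COS+APAP libraries. Its log2 fold change was -0.40 ± 0.10 after APAP (adjusted p = 0.0242) and 0.65 ± 0.10 in COS+APAP against APAP (adjusted p = 0.0145). Stt3b had 13.68 and 13.98 FPKM in the control, 18.05 and 17.48 in the APAP and 17.93 and 19.88 in the COS+APAP libraries, the control libraries being lowest. It was higher by 0.50 ± 0.11 after APAP (adjusted p = 0.0162) and by 0.61 ± 0.11 in COS+APAP against control (adjusted p = 0.0193). The FPKM of Stt3b relative to Stt3a in the same library was 1.88 and 2.04 in the control, 3.74 and 3.57 in the APAP and 2.41 and 2.63 in the COS+APAP libraries. Both calls of Stt3a were lost with any 1 library left out (adjusted p of 0.0505 to 0.0923 after APAP and 0.055 to 0.0652 against APAP). The call of Stt3b after APAP was lost without either control library or without APAP replicate 1 (adjusted p of up to 0.0695), and that against control without either control library or without COS+APAP replicate 3 (up to 0.0949).

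Rpn2, which pairs with Rpn1 in the complex, did not pass the test in any comparison, with 26.21 and 19.12 FPKM in the control, 24.31 and 29.35 in the APAP and 31.27 and 29.06 in the COS+APAP libraries. The control and APAP libraries overlapped. Relative to Rpn2, Rpn1 measured 1.19 and 1.42 in the control, 0.633 and 0.565 in the APAP and 1.02 and 1.13 in the COS+APAP libraries. Dad1, a small core subunit, ranged from 14.29 to 18.85 FPKM over the 6 libraries and also stayed uncalled. The remaining tested genes of the complex, Ost4 and Ostc, are not annotated as members and were named after their values were seen. Ost4 fell after APAP (log2 fold change -0.68 ± 0.13, adjusted p = 0.0103) and Ostc was higher in COS+APAP than in APAP (0.72 ± 0.18, adjusted p = 0.0382).

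**Figure D2:**
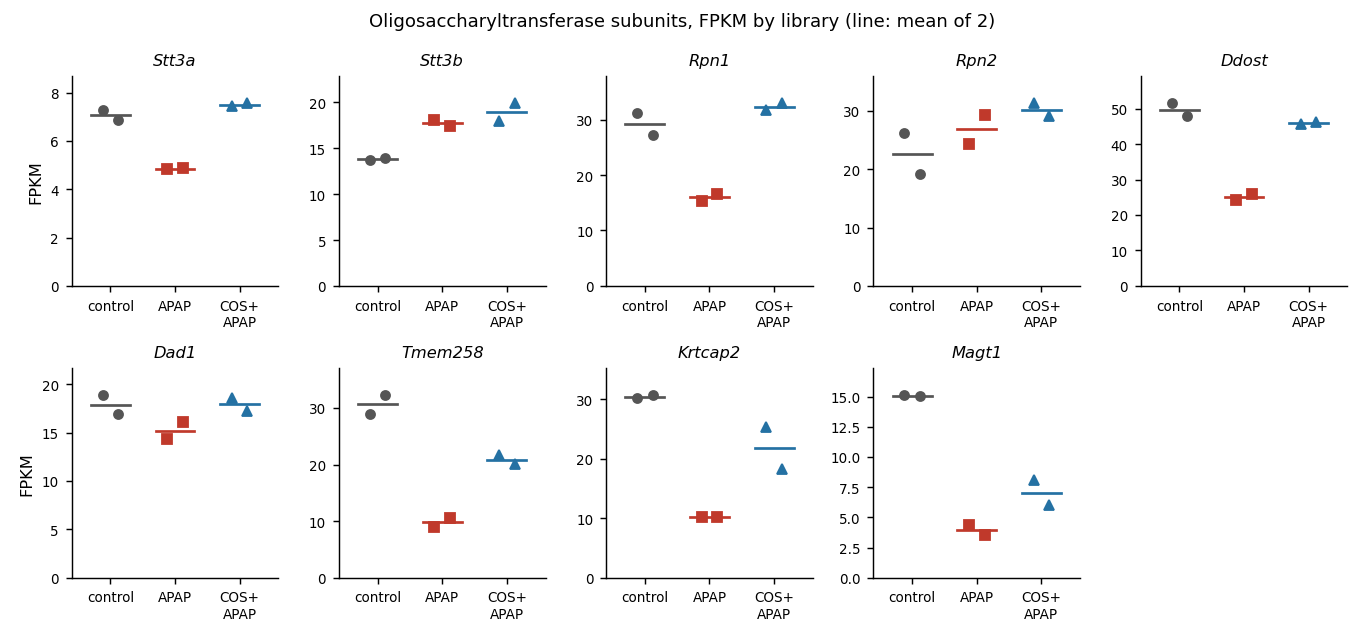
FPKM (y axis, from 0) of the 9 oligosaccharyltransferase subunits in each of the 6 libraries; points are libraries and horizontal lines the mean of 2. The APAP libraries are the lowest for Ddost (24.24 and 26.05), Rpn1, Tmem258, Krtcap2, Magt1, Stt3a and Dad1, while for Stt3b the control libraries are (13.68 and 13.98).

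Of the 8 members that build the dolichol-linked precursor, 3 fell (37.5%) and 1 rose (12.5%) after APAP (median log2 fold change -0.66). Among all genes, 22.1% fell and 23.3% rose. In COS+APAP against APAP, 4 rose (50.0%) and 1 fell (12.5%), beside 11.2% and 11.1% of all genes (median 0.68). Alg9, a mannosyltransferase of the late steps, had 3.83 and 4.32 FPKM in the control, 2.19 and 2.35 in the APAP and 3.88 and 3.84 in the COS+APAP libraries. It fell by 0.70 ± 0.13 after APAP on the log2 scale (adjusted p = 0.00918) and was higher by 0.79 ± 0.13 in COS+APAP than in APAP (adjusted p = 0.016). Alg8, a glucosyltransferase, was also lowest after APAP, with log2 fold changes of -0.73 ± 0.15 (adjusted p = 0.0114) and 0.63 ± 0.15 (adjusted p = 0.0338). Dolpp1, a phosphatase that recycles the dolichol carrier, changed by -0.62 ± 0.19 (adjusted p = 0.0458) and 0.79 ± 0.19 (adjusted p = 0.0396). The APAP libraries were lowest for all 3 genes and overlapped with neither other group.

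Alg10b, which adds the last glucose to the precursor, moved the other way. It had 2.24 and 1.88 FPKM in the control, 3.27 and 3.61 in the APAP and 2.01 and 2.05 in the COS+APAP libraries, the APAP libraries being highest. It rose by 0.88 ± 0.14 on the log2 scale after APAP (adjusted p = 0.00611) and was lower in COS+APAP than in APAP by -0.74 ± 0.14 (adjusted p = 0.0214). Dpagt1, the enzyme of the first step and the target of tunicamycin, was not called after APAP (-0.16 ± 0.14) but was higher in COS+APAP than in APAP by 0.72 ± 0.14 (adjusted p = 0.0236) and than in control by 0.56 ± 0.14 (adjusted p = 0.0472), with 8.47 and 7.78 FPKM against 6.76 and 5.54 in the control libraries. With any 1 library left out, the changes of Alg8, Alg9 and Alg10b after APAP held, and every call of Dolpp1 and every call of this group against APAP was lost, at adjusted p-values of 0.0502 to 0.167. The call of Dpagt1 against control was lost without control replicate 3 or without either COS+APAP library (adjusted p of up to 0.164), and with library totals as the scaling.

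Alg5, which makes the glucose donor dolichyl-phosphate-glucose, Alg11 and Alg12 were not called in any comparison. Libraries of 1 group differed widely for Alg12, a mannosyltransferase, with 1.53 and 6.14 FPKM in the control and 6.14 and 2.81 in the COS+APAP libraries against 1.99 and 2.07 after APAP. Alg11, another mannosyltransferase, stood at 2.91 and 1.00 FPKM in the COS+APAP libraries. Among the other genes of lipid-linked oligosaccharide assembly, 2 of 9 were called higher and 3 lower after APAP, and 1 higher in COS+APAP against APAP. The shares of all genes were 23.3% higher and 22.1% lower after APAP, and 11.2% higher against APAP. Alg2, a mannosyltransferase of the early steps, rose in both, from 0.70 and 0.54 FPKM in the control to 1.33 and 1.83 after APAP and 4.55 and 3.56 in COS+APAP (1.38 ± 0.25 against APAP, adjusted p = 0.0187). The FPKM minimum favoured a rise from control in this gene.

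Enzymes of the mevalonate pathway, which supplies the isoprene units of dolichol and also of cholesterol, fell after APAP, and none was called higher in COS+APAP than in APAP. Of 9 tested genes of mevalonate and dolichol synthesis that are not members, 6 fell and 1 rose after APAP (median log2 fold change -1.02). Among all genes, 22.1% fell and 23.3% rose. In COS+APAP against APAP none rose and 2 fell (median -0.18), beside 11.2% and 11.1% of all genes. Mvd, a decarboxylase of the mevalonate pathway, had 32.34 and 40.31 FPKM in the control, 3.61 and 2.1 in the APAP and 1.27 and 1.77 in the COS+APAP libraries. The log2 fold changes against control were -3.52 ± 0.35 for APAP (adjusted p = 0.00185) and -4.41 ± 0.36 for COS+APAP (adjusted p = 0.00352). Mvk and Fdps, enzymes of the same pathway, also fell after APAP, by 2.56 and 2.96 on the log2 scale, and were not called between COS+APAP and APAP. Idi1, the isomerase of that pathway, fell by 1.25 ± 0.27 after APAP (adjusted p = 0.0144) and was lower again in COS+APAP, by -3.23 ± 0.29 against APAP (adjusted p = 0.00589). The 4 genes closer to dolichol itself were mixed. Nus1, a subunit of the prenyltransferase that builds the dolichol chain, rose after APAP (0.51 ± 0.12, adjusted p = 0.0177), and its partner Dhdds fell (-0.53 ± 0.16, adjusted p = 0.0404). Srd5a3 and Dolk, which act on the finished chain, had log2 fold changes of -0.06 and -0.31 and were not called. None of these 4 was called between COS+APAP and APAP, with log2 fold changes of 0.56 for Dhdds, 0.43 for Srd5a3, 0.11 for Dolk and -0.26 for Nus1. These 4 genes were named after their values were seen.

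Of the 4 members that supply sugar donors, 3 rose in COS+APAP against APAP (75.0%, beside 11.2% of all genes) and 3 against control (75.0%, beside 10.7%). After APAP 1 rose and 1 fell (25.0% each, beside 23.3% and 22.1%). The FPKM minimum favoured the rise of Pmm1 in both comparisons of COS+APAP and that of Gfpt1 against control. Pmm1 (chr15:81951108-81960869, minus strand), a phosphomannomutase, had 0.89 and 1.12 FPKM in the control, 0.69 and 1.17 in the APAP and 3.82 and 4.85 in the COS+APAP libraries. The control and APAP libraries overlapped and both COS+APAP libraries stood above them. Its log2 fold change was 2.22 ± 0.30 against APAP (adjusted p = 0.0108) and 2.25 ± 0.30 against control (adjusted p = 0.00936), and 0.03 ± 0.29 in APAP against control. Because the FPKM minimum favoured a high COS+APAP level in this gene, these p-values are given as a description. The call against APAP held with any 1 library left out, and that against control was lost without COS+APAP replicate 3 (adjusted p = 0.0508).

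Pmm2, the phosphomannomutase whose deficiency is the most common congenital disorder of glycosylation, was the more abundant of the 2 in every library. It had 13.82 and 14.71 FPKM in the control, 5.96 and 7.14 in the APAP and 10.41 and 9.03 in the COS+APAP libraries, with no overlap between groups. It fell by 0.99 ± 0.13 after APAP on the log2 scale (adjusted p = 0.00354), a call kept with any 1 library left out. COS+APAP lay 0.59 ± 0.13 above APAP (adjusted p = 0.0291), a call lost with any 1 library left out (adjusted p of 0.0562 to 0.13). Relative to Pmm2, the FPKM of Pmm1 was 0.0644 and 0.0761 in the control, 0.116 and 0.164 in the APAP and 0.367 and 0.537 in the COS+APAP libraries.

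The other 2 members of this step belong to the hexosamine pathway, which makes UDP-N-acetylglucosamine. Pgm3 (chr9:86554377-86571828, minus strand), its phosphoacetylglucosamine mutase, had 3.26 and 3.04 FPKM in the control, 2.71 and 2.65 in the APAP and 5.82 and 4.84 in the COS+APAP libraries, the COS+APAP libraries being highest. It was higher in COS+APAP by 1.01 ± 0.14 against APAP (adjusted p = 0.0112) and by 0.91 ± 0.14 against control (adjusted p = 0.0123). The first call was lost without APAP replicate 1 or COS+APAP replicate 2 and the second without control replicate 3 or COS+APAP replicate 2, at adjusted p-values of up to 0.0625. Gfpt1 (chr6:87042846-87092197, plus strand), the enzyme that commits fructose 6-phosphate to this pathway, had 0.78 and 0.77 FPKM in the control, 1.23 and 1.38 in the APAP and 1.19 and 1.63 in the COS+APAP libraries. Both groups given APAP lay above the control and overlapped with each other. The log2 fold changes against control were 0.89 ± 0.19 for APAP (adjusted p = 0.0154) and 1.02 ± 0.19 for COS+APAP (adjusted p = 0.0217). The FPKM minimum favoured this direction too, and neither call held throughout: both were lost without either control library, the first also without APAP replicate 3 and the second without COS+APAP replicate 3, at adjusted p-values of up to 0.0948, and both were lost with limma on log2(FPKM + 1).

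Among 18 other tested genes of sugar nucleotide supply and transport, 4 rose and 7 fell after APAP (median log2 fold change -0.40). Of all genes, 23.3% rose and 22.1% fell. In COS+APAP against APAP 6 rose and none fell (median 0.33), beside 11.2% and 11.1% of all genes. Nans, which makes sialic acid phosphate, changed by -1.88 ± 0.17 after APAP (adjusted p = 0.0016) and 1.48 ± 0.17 against APAP (adjusted p = 0.00759). Gmppb, which makes GDP-mannose, changed by -1.08 ± 0.15 (adjusted p = 0.0044) and 1.18 ± 0.15 (adjusted p = 0.0104). Slc35c1, the GDP-fucose transporter, rose after APAP by 1.26 ± 0.27 (adjusted p = 0.0145).

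Only 2 members act in the ER after transfer, and neither was called after APAP. Mogs, the glucosidase that removes the outermost glucose, had 12.82 and 13.30 FPKM in the control, 9.52 and 9.45 in the APAP and 6.55 and 5.60 in the COS+APAP libraries. The 3 groups did not overlap, and the COS+APAP libraries were lowest. The log2 fold changes of COS+APAP were -0.62 ± 0.12 against APAP (adjusted p = 0.023) and -0.95 ± 0.12 against control (adjusted p = 0.00877). The first was lost with any 1 library left out (adjusted p of 0.061 to 0.101) and the second without COS+APAP replicate 3 (adjusted p = 0.051). Entpd5, an ER nucleotidase that supports the folding cycle, had 32.28 and 30.93 FPKM in the control, 21.84 and 32.69 in the APAP and 42.46 and 42.55 in the COS+APAP libraries, and its difference from APAP, 0.66 ± 0.19, missed the threshold (adjusted p = 0.0559).

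Of 17 other tested glucosidases, lectin chaperones and mannosidases of the ER, 2 rose and 4 fell after APAP (median log2 fold change -0.30). Among all genes, 23.3% rose and 22.1% fell. In COS+APAP against APAP 8 rose and none fell (median 0.47), beside 11.2% and 11.1% of all genes. With Mogs included, 4 of 18 were called lower after APAP. With library totals alone as the scaling, 10 of 18 were, beside 27.9% of all genes. Calr, the lectin chaperone calreticulin, had 541.7 and 473.43 FPKM in the control, 153.61 and 155.94 in the APAP and 390.63 and 389.77 in the COS+APAP libraries. Its log2 fold changes were -1.58 ± 0.13 after APAP (adjusted p = 0.00144) and 1.35 ± 0.13 against APAP (adjusted p = 0.00589). Pdia3, the disulfide isomerase that works with it, changed by -1.53 ± 0.12 and 1.05 ± 0.12, and Edem2, which trims mannose from misfolded proteins, by -0.93 ± 0.13 and 1.17 ± 0.13, with adjusted p-values of at most 0.00787. Uggt1, which reglucosylates unfolded glycoproteins, was called only against APAP (1.04 ± 0.18, adjusted p = 0.0176).

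The 8 Golgi members did not share a direction: 2 rose and 1 fell after APAP, and 2 rose and 1 fell in COS+APAP against APAP. In both comparisons 25.0% were thus called higher and 12.5% lower. The shares of all genes were 23.3% and 22.1% after APAP and 11.2% and 11.1% against APAP. The share called higher after APAP was near that of all genes. Gorasp1 (chr9:119925257-119937565, minus strand), which encodes the Golgi stacking protein GRASP65, had 9.57 and 9.59 FPKM in the control, 2.59 and 2.91 in the APAP and 8.91 and 8.62 in the COS+APAP libraries. Libraries of 1 group lay close together, and both APAP libraries were lowest. It fell by 1.67 ± 0.11 on the log2 scale after APAP (adjusted p = 0.00112) and was higher by 1.69 ± 0.11 in COS+APAP than in APAP (adjusted p = 0.00362). Both calls held with any 1 library left out, at adjusted p-values of at most 0.0271. Its span overlaps that of Wdr48 on the opposite strand over 1330 bases, and the sources used here do not say whether counting used strand, so reads there cannot be told apart.

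St3gal1 (chr15:67102875-67176830, minus strand), a sialyltransferase acting mainly on O-linked chains, had 10.71 and 12.20 FPKM in the control, 22.79 and 23.74 in the APAP and 9.36 and 9.58 in the COS+APAP libraries. The APAP libraries were highest, with no overlap. It rose by 1.16 ± 0.11 on the log2 scale after APAP (adjusted p = 0.00171), and COS+APAP lay below APAP by -1.28 ± 0.11 (adjusted p = 0.00555). Both calls held with any 1 library left out, at adjusted p-values of at most 0.0325.

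Mgat1 (chr11:49244191-49263027, plus strand) encodes the N-acetylglucosaminyltransferase that starts the conversion to complex N-glycans. It had 1.65 and 2.72 FPKM in the control, 1.28 and 0.66 in the APAP and 0.38 and 0.15 in the COS+APAP libraries. The groups did not overlap, the control being highest and COS+APAP lowest, and the 2 libraries of each group differed widely. COS+APAP differed from control by -2.84 ± 0.57 on the log2 scale (adjusted p = 0.025). Neither APAP against control (-1.01 ± 0.53, adjusted p = 0.175) nor COS+APAP against APAP (-1.83 ± 0.56, adjusted p = 0.0683) passed the test. The FPKM minimum favoured a high control level in this gene. The call against control was lost without either control library or without COS+APAP replicate 3, at adjusted p-values of up to 0.0954.

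Mgat2, a later enzyme on that branch, had 5.49 and 4.32 FPKM in the control, 6.67 and 6.50 in the APAP and 7.28 and 6.94 in the COS+APAP libraries, the control being lowest. Its log2 fold changes against control were 0.56 ± 0.16 for APAP (adjusted p = 0.0346) and 0.69 ± 0.16 for COS+APAP (adjusted p = 0.0356), and neither call held with library totals as the scaling. With 1 library left out, the first held only without control replicate 1, and the second likewise, at adjusted p-values of up to 0.128. B4galt7, a galactosyltransferase of proteoglycan linkers, was called only against APAP (0.55 ± 0.15, adjusted p = 0.0485), a call lost with any 1 library left out (adjusted p of 0.133 to 0.165). B4galt1, Mgat4b and Tmem165, a manganese transporter needed by Golgi glycosyltransferases, were not called in any comparison, with log2 fold changes between -0.38 and 0.43.

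**Figure D3:**
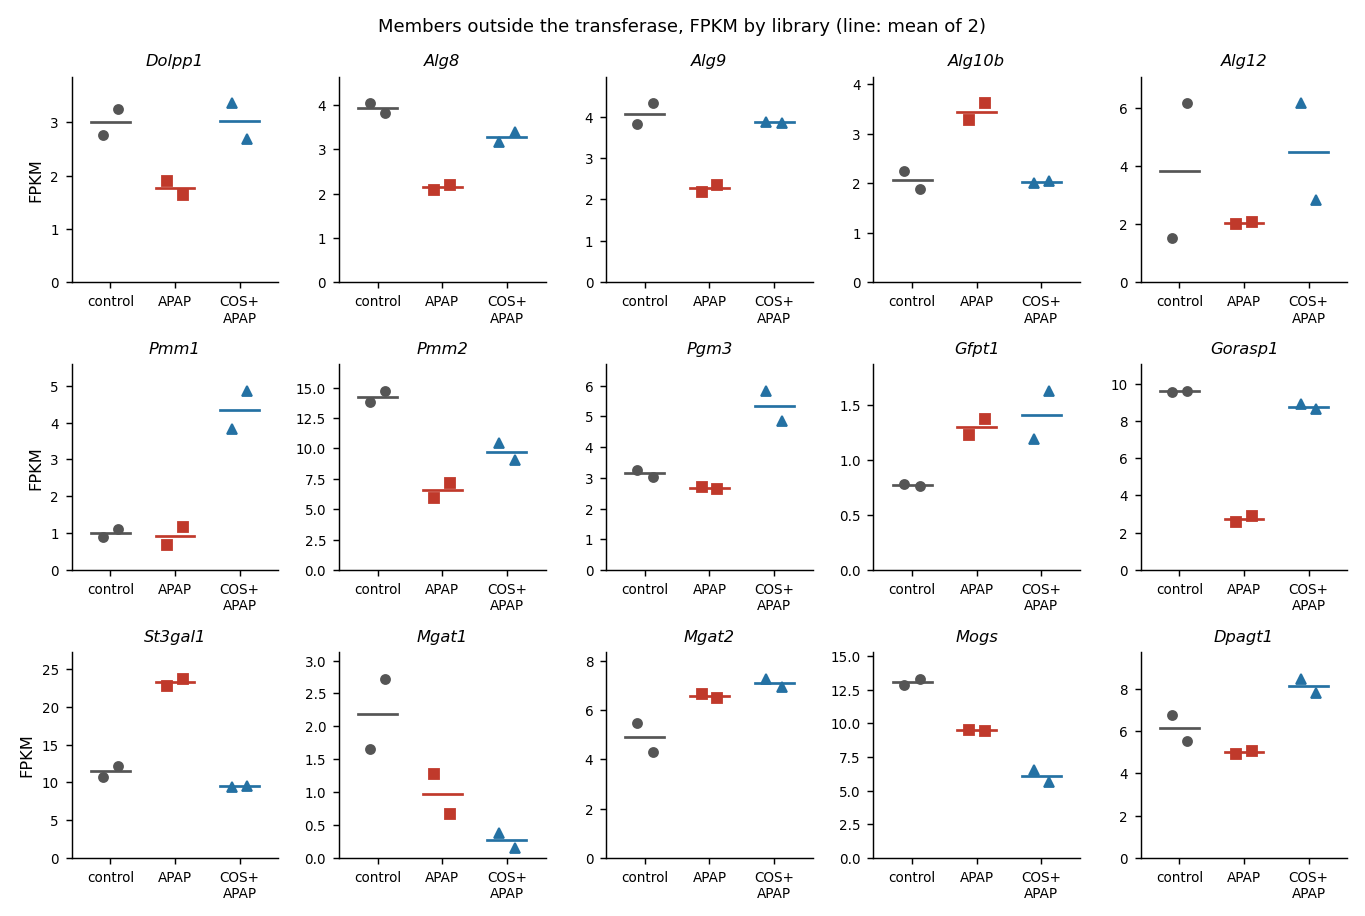
FPKM (y axis, from 0) in each of the 6 libraries for 15 members that are not transferase subunits; points are libraries and horizontal lines the mean of 2. Pmm1 (3.82 and 4.85), Pgm3 and Dpagt1 are highest in COS+APAP, St3gal1 (22.79 and 23.74) and Alg10b are highest after APAP, and the 2 control libraries of Alg12 differ from 1.53 to 6.14.

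Of 11 other tested Golgi enzymes of N-glycan processing, 7 rose and none fell after APAP (median log2 fold change 0.76). Among all genes, 23.3% rose and 22.1% fell. In COS+APAP against APAP none rose and 2 fell (median -0.19), beside 11.2% and 11.1% of all genes. Man2a1 and Man2a2, the mannosidases that act just after Mgat1, rose by 1.3 ± 0.11 (adjusted p = 0.00152) and 1.04 ± 0.12 (adjusted p = 0.0026). Against APAP neither was called in COS+APAP. B4galt5, a galactosyltransferase, had 5.62 and 6.05 FPKM in the control, 26.81 and 15.22 in the APAP and 3.49 and 4.99 in the COS+APAP libraries, and was called in both comparisons (1.99 ± 0.33, adjusted p = 0.00672, and -2.29 ± 0.34, adjusted p = 0.0122).

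The last 3 members are not glycosylation enzymes. Serpina1a and Serpina1b encode alpha-1-antitrypsin, a secreted glycoprotein, and were the most abundant members, with 2247.61 to 3258.86 and 2479.66 to 3528.51 FPKM. Each rose after APAP by 0.53 ± 0.15 on the log2 scale (adjusted p = 0.0322 and 0.0357) and was not called in the other comparisons. They are near-identical copies that share reads, so their values are not separate evidence and the split between them is uncertain. Both calls were lost with library totals as the scaling, and when control replicate 3, APAP replicate 1 or APAP replicate 3 was left out (adjusted p of up to 0.14). Slc39a8, a metal ion transporter that carries manganese, ranged from 0.98 to 1.53 FPKM and was not called.

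The members' other annotations in the same table overlap in meaning with the term that chose them. They describe the set and are not a separate result. Of the 34, 22 are annotated to the endoplasmic reticulum (64.7%, beside 9.39% of tested genes) and 10 to the Golgi apparatus (29.4%, beside 7.33%). The KEGG pathway N-Glycan biosynthesis holds 19 of the 34 (55.9%, beside 0.36% of tested genes). On the chromosomes they are scattered, with at most 6 members on 1 chromosome (chromosome 9). Alg9, Dolpp1 and Pmm2, besides Gorasp1, overlap another tested gene on the opposite strand, over 502 bases for Alg9, 59 for Dolpp1 and up to 3888 for Pmm2, so the same limit on strand holds for them.

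Genes of ER chaperones and the unfolded protein response, the signalling that adjusts folding capacity, were split after APAP: of 33 tested, 9 rose and 14 fell (median log2 fold change -0.19). The shares of all genes after APAP were 23.3% higher and 22.1% lower. In COS+APAP against APAP, 15 rose and 3 fell (median 0.51), beside 11.2% and 11.1% of all genes. Calr, Canx and Pdia3 are also among the lectin chaperones listed above, so the calls of Calr and Pdia3 count in both lists. Sdf2l1, an ER chaperone component, had 70.53 and 61.12 FPKM in the control, 8.58 and 7.8 in the APAP and 37.77 and 41.7 in the COS+APAP libraries, with log2 fold changes of -2.87 ± 0.15 (adjusted p = 0.00089) and 2.30 ± 0.15 (adjusted p = 0.00341). Derl3, part of the ER degradation machinery, followed the same order (-4.89 ± 0.79 and 4.07 ± 0.77, adjusted p = 0.0062 and 0.0211), with 0.07 and 0.36 FPKM after APAP. These levels are below the FPKM minimum, which Derl3 reached through the other groups. The minimum thus favoured both of its differences, and its p-values are given as a description. By contrast, Hspa5, the main ER chaperone BiP, rose after APAP by 2.19 ± 0.39 (adjusted p = 0.00829), as did its cofactor Dnajb9 by 2.82 ± 0.35 (adjusted p = 0.00309), and neither was called between COS+APAP and APAP. The signalling genes Xbp1, Ern1 and Eif2ak3 also rose after APAP, by 1.74 ± 0.15, 1.26 ± 0.13 and 2.14 ± 0.17. They were the 3 genes lower in COS+APAP than in APAP, by -1.51 ± 0.15, -1.53 ± 0.13 and -0.97 ± 0.17. Atf6 rose after APAP by 1.24 ± 0.16 and was not called against APAP. Eif2ak3 stood below the FPKM minimum in the control libraries (0.99 and 0.95), which favoured its rise. These signalling genes were named after their values were seen. The genes of GPI anchor synthesis, which draws on the same dolichol-linked mannose, had 2 of 19 higher and 7 lower after APAP. Against APAP, 3 of these were higher and 1 lower. The same shares of all genes apply here, 23.3% and 22.1% after APAP and 11.2% and 11.1% against APAP. Pigv, a mannosyltransferase of that pathway, changed by -1.71 ± 0.18 and 1.39 ± 0.18 (adjusted p = 0.00206 and 0.00952). Pgap2 fell and Pigm rose after APAP (-1.42 ± 0.23 and 1.06 ± 0.14), and neither was called against APAP. Pigm stood below the FPKM minimum in the control libraries (0.82 and 0.79) and Pigv in the APAP libraries (0.67 and 0.65). The minimum therefore favoured their differences. Dpm1, Dpm2 and Dpm3 are on the GPI list and also on that of lipid-linked oligosaccharide assembly. The lower calls of Dpm2 and Dpm3 after APAP thus count in both lists.

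**Figure D4:**
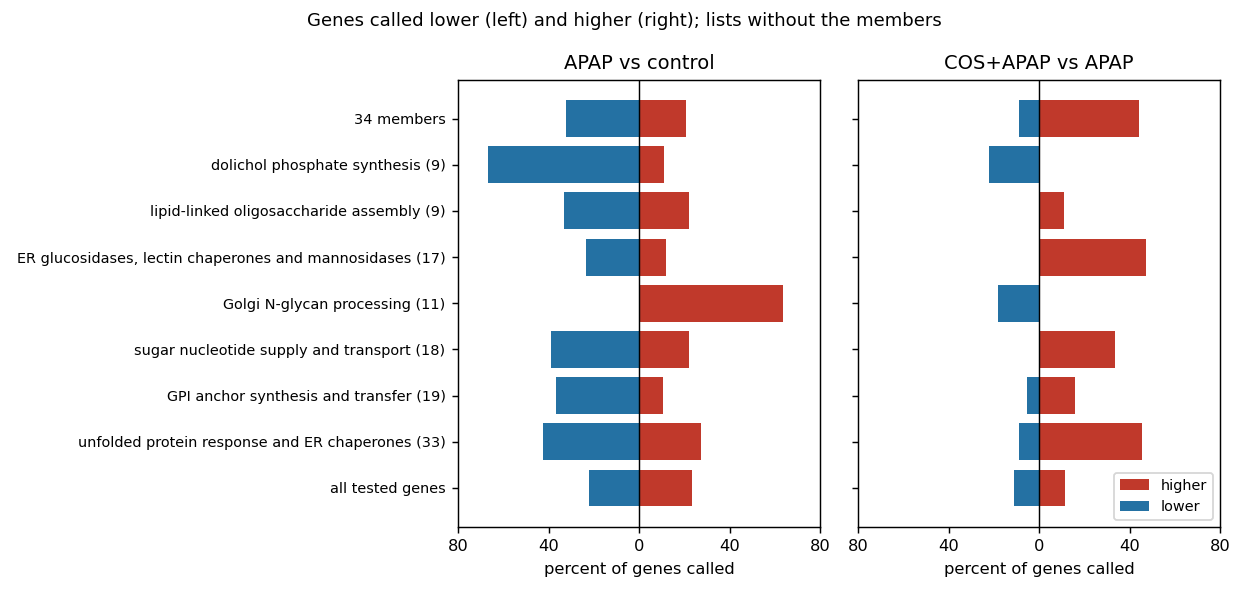
Percent of tested genes called lower (left of 0) and higher (right of 0) among the 34 members, 7 lists of neighbouring pathways without the members (number tested in parentheses) and all tested genes. In COS+APAP against APAP, 44.1% of the members are called higher beside 11.2% of all genes; the Golgi list is called higher after APAP (7 of 11) and the list of mevalonate and dolichol synthesis lower (6 of 9).

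RefSeq promoter windows (GRCm38.p6, 250 bases before to 50 after a start site) were matched by symbol for 30 of the 34 members, in 36 windows. The letters of 6 response elements were searched on both strands. The ER stress element (ERSE, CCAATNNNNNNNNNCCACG) was in 1 window, that of Alg12 (2.78% of the members' windows, beside 0.119% of 32851 windows of the same length and 0.155% of the 9021 windows of tested genes). The UPRE core (TGACGTGG), the ATF4 site (TGATGNAA) and the CRE (TGACGTCA) were in none of the members' windows, beside 0.676%, 3.97% and 1.79% of all windows and 1.09%, 2.22% and 2.98% of those of tested genes. The sterol element SRE (TCACNCCAC) was in 1, that of Tmem258 (2.78%, beside 1.24% of all and 1.31% of tested genes' windows), and the E-box (CACGTG) in 3, those of Gorasp1, Magt1 and Slc39a8 (8.33%, beside 7.15% of all and 10.4% of tested genes' windows). No element overlaps another among the matches. The matched stretches are printed for the genes with large changes and for Alg12, the one ERSE match, 5′ to 3′ on the gene's strand, with the element in capitals; a match is a description of letters only.
Gorasp1, E-box at bases 4 to 9 after the start, within chr9:119937509-119937808: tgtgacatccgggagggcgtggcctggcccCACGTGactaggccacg
Magt1, E-box at -97 to -92, within chrX:106011753-106012052: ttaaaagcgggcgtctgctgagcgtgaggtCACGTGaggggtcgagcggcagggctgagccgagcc
Tmem258, SRE at -148 to -140, within chr19:10203952-10204251: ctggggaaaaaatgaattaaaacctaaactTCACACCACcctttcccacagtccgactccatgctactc
Alg12, ERSE at -220 to -202, within chr15:88819269-88819568: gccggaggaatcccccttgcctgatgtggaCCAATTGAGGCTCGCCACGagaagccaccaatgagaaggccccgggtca
Of these genes, Gorasp1, Magt1 and Tmem258 fell after APAP and were higher in COS+APAP than in APAP, while Alg12 was not called. Slc39a8, the other E-box match, whose stretch is not printed, was not called in any comparison either. The span of Creld2, on the list of the unfolded protein response, begins at chr15:88819646, just beyond the Alg12 window. The ERSE match lies between the spans of Alg12 and Creld2, so it cannot be assigned to Alg12 alone. Creld2 fell after APAP (-1.50 ± 0.24, adjusted p = 0.00594) and was not called between COS+APAP and APAP.

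Markers of other cell types moved with the groups. The summed FPKM of 5 sinusoidal endothelial markers was 22.3 to 25.24 in the control, 28.46 to 30.06 in the APAP and 12.61 to 14.96 in the COS+APAP libraries, with 4 of 5 lower in COS+APAP than in APAP and 3 of 5 lower than in control. For 5 stellate cell markers, 2 of them tested, the sums were 21.78 to 23.37, 28.91 to 31.21 and 9.08 to 12.45. Erythroid markers summed to 157.6 to 181.8 in the control, 651.5 to 901.4 in the APAP and 190.3 to 197.3 in the COS+APAP libraries. Neutrophil markers, with Ly6g at 0 in every library, summed to 3.37 to 5.45, 9.62 to 30.2 and 1.94 to 3.41. Cholangiocyte markers summed to 28.49 to 34.42, 35.37 to 51.03 and 20.15 to 21, and Kupffer cell markers to 43.12 to 48.09, 48.09 to 70.98 and 53.21 to 55.66. The hepatocyte sums were 48940 to 49540, 57350 to 59540 and 44820 to 47160, with 1 of 6 markers higher and 1 lower after APAP. Lymphocyte markers summed to at most 2.12 and pancreatic acinar markers, with Prss2 at 0, to at most 4.2 in any library. The part of these shifts in the differences of the glycosylation genes was not tested.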

How the data were processed

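Poly(A) RNA-seq of 6 mouse liver libraries was analysed from 1 deposited table holding estimated counts and FPKM per gene. HISAT2 2.0 and StringTie 1.3.0 are named in the submitters' processing notes. The authors' deposited estimated counts are not one per fragment: about 4 appear to stand for 1 fragment, since genes at a count of 4 outnumber those at 3. The FPKM values are the authors' own, per the file headers. No source used here names the genome build; all 34 identifiers are in GENCODE M21, 28 with identical coordinates. Another 6 value columns match no sample and were not used.

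Genes with a mean of at least 1 FPKM (10051 of 55401) were tested with edgeR 4.0.16 (TMM, quasi-likelihood F test, 1 model of 3 groups, two-sided), Benjamini-Hochberg adjusted over all of them, and called at an adjusted p below 0.05. SE is the log2 fold change over the square root of F. Counts were rounded, and the scripts were tested on simulated data. With 2 libraries against 2, an exact permutation test cannot go below 0.33. Members and lists were chosen with earlier results of these data known. Members called at an absolute log2 fold change of at least 1 are given in full, as are up to 4 such genes per list, of which 1 is not reported here. Alternatives used DESeq2 1.42.0, limma 3.58.1 on log2(FPKM + 1) or log2(FPKM + 0.1), other scalings and filters, the counts divided by 4, only the groups compared, a replicate block, and each library left out.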

Additional observations from a re-analysis of the deposited data

How the results depend on the processing

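In APAP against control, 7 members were called higher, and 4 were with library totals alone or with only the 2 groups compared, 3 with a replicate block and 2 to 6 with 1 library left out. The 11 lower calls stayed within 1.5 times of that number under every alternative run. The median of -0.20 became -0.35 with library totals, -0.26 and -0.32 with limma on log2(FPKM + 1) and log2(FPKM + 0.1), and -0.35 to -0.16 with 1 library left out. In COS+APAP against APAP, the 15 higher calls became 9 with a minimum of 5 FPKM (21 members tested), 0 with the replicate block and 5 to 7 with 1 library left out. The 3 lower calls became 0 with the block and 1 with any library left out. The median of 0.44 became 0.33 and 0.41 with limma, 0.36 with the block and 0.35 to 0.48 with 1 library left out. In COS+APAP against control, the 6 higher calls became 10 with DESeq2, 3 with the 5 FPKM minimum and with either limma fit, 0 with the block and 1 to 5 with 1 library left out. The 3 lower calls became 5 with library totals, DESeq2 and either limma fit, 0 with the block and 0 to 4 with 1 library left out. The median of 0.15 became -0.02 with library totals, -0.01 with both limma fits and 0.10 to 0.16 with 1 library left out. The cause of these shifts was not tested, apart from the 5 FPKM minimum, which tests fewer members.

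Among the 10051 genes, 48.7% of calls in APAP against control were lower, and 60.0% with library totals; in COS+APAP against control 49.1% and 69.6%. The replicate block left 1 residual degree of freedom, against 3. Control and APAP share the numbers 1 and 3, and COS+APAP has 2 and 3. Over genes, the difference between the control libraries did not follow that between the APAP libraries (correlation 0.0129). That check uses a single difference per group and leaves out COS+APAP, so it cannot tell whether the number marks a batch. With the block, edgeR called 16 genes higher and 15 lower of all tested between COS+APAP and APAP. Of the 18 members called in APAP against control, 10 were called in the same direction under every alternative run: Alg9, Alg10b, Ddost, Gorasp1, Krtcap2, Magt1, Pmm2, Rpn1, St3gal1 and Tmem258. No called member changed sign under any alternative run.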
